A study of Mus musculus with 10 samples.

Results

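The myelin protein genes Mbp, Mag, Mog, Mobp, Cnp, Cldn11, Mal and Nfasc, together with Myrf, the gene of a transcription factor that turns many of them on, were examined for binding of RNA polymerase II (Pol II), Qki-5 and Srebp2. These 9 genes were listed by name from the 21951 protein-coding genes (55450 genes in all) of the GENCODE M21 annotation. For each gene, the promoters (regions within 2000 bp of any transcription start site, TSS), the gene span and the distance to the nearest peak were read from 6 lists of ChIP-seq peaks.

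The study mapped the 3 proteins in mouse cells that were labelled as oligodendrocytes and had been differentiated in culture with the thyroid hormone T3 from neural stem cells (NSCs) of an FvB/C57BL6 hybrid background. The genotypes were Qk-/- and wild type (WT), and the question was how the absence of Qki changes the binding of Srebp2 and Pol II to chromatin. According to the methods, the NSCs came from whole brains of newborn Nestin-CreERT2;Qk L/L pups, and Qk was deleted in culture with 4-hydroxytamoxifen, so that Nestin drove the recombinase. Whether the WT cells carried the same transgene and received the same treatment is not stated in the sources used here. Each antibody was used in 1 library per genotype, at passage 7 for Pol II and Qki-5, which shared an input within a genotype, and at passage 8 for Srebp2, which had inputs of its own. With 1 library per antibody and genotype there is no replicate spread, so no difference between Qk-/- and WT cells was tested, and each value is that of its own library.

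Oligodendrocytes wrap axons in layers of membrane, and myelin is held together by proteins with distinct places in it. Mbp zips the cytoplasmic faces of compact myelin together, Mobp is another basic protein of compact myelin, Mal is a proteolipid of membrane rafts, and Cldn11 forms the tight junctions of the sheath. Mag lies on the membrane next to the axon and Mog on the outermost surface, Cnp is the cyclic nucleotide phosphodiesterase of noncompact myelin, and Nfasc encodes neurofascins, including the glial form that anchors myelin loops at paranodes. Qki proteins are RNA-binding proteins known for processing the RNAs of Mbp, Mag and neurofascin, and Qki-5 is their nuclear isoform. Pol II transcribes protein-coding genes and accumulates near active start sites, and Srebp2 is the transcription factor that activates genes of cholesterol synthesis.

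The Qk-/- lists held 12835 Pol II, 427 Qki-5 and 28 Srebp2 peaks, against 32280, 7539 and 77 peaks in the WT lists. The Qki-5 and Srebp2 lists are shorter than the study describes for such cells, and whether they come from the same run of peak calling was not stated, so a peak absent here is one absent from these lists and not a measure of all binding. Values of a peak are its fold enrichment over the input and −log10 of its q-value, and a fold was ranked only against other peaks of its own list, since the lists hold no read totals and depth is unknown. The median fold of the Qk-/- Pol II list was 8.43 and that of the WT Pol II list 5.22. Promoters held 85.8% of the Qk-/- Pol II peaks and 49.6% of the WT Pol II peaks. For the strongest promoter peak of each bound gene, the order was reversed, with median folds of 10.3 (Qk-/-) and 15.4 (WT). Qk itself had 8 Pol II peaks on its promoter or span in Qk-/- cells, against 88 in WT cells, and its promoter carried no Qki-5 peak in Qk-/- cells, against 1 of 8.13-fold in WT cells. The lists cannot show the deleted exon.

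The sequences around the bound sites of Cnp and Nfasc are shown first, because these were the only members with a promoter peak in any list. They are from mm10 and outside annotated exons, written 5′ to 3′ on the strand of the gene. Capitals mark matches, on either strand, to 12 short motifs: ACTAAC and ACTAAT (the DNA letters of the Qki recognition element in RNA), CTGGCAC and CTGGTAC (Myrf), ACAAAG and ACAATG (Sox factors), TTGGC (Nfi half-site), GGGCGG (Sp1), CCAAT (NF-Y), TGCGCA (Nrf1 half-site), TCACNCCAC (Srebp) and CAGCTG (an E-box that Olig2 can bind). TTGGC on one strand and CCAAT on the other share 4 letters. The upstream flank of Cnp (chr11:100574654-100574903, + strand) ends at the base before the first exon, the stretch of its first intron (chr11:100575069-100575111, + strand) lies inside the WT Qki-5 peak, the upstream flank of Nfasc (chr1:132741849-132742056, − strand) runs to the upstream edge of the WT Pol II peak, and the intronic stretch of Nfasc (chr1:132639479-132639778, − strand) is centred on the WT Qki-5 summit.
Cnp upstream flank: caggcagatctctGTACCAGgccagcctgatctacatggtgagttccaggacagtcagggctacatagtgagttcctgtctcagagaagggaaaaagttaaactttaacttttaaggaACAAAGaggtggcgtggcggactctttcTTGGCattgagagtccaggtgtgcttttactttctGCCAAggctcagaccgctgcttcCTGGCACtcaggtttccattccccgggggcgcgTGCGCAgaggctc
Cnp first intron within the Qki-5 peak: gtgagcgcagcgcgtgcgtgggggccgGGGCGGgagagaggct
Nfasc upstream flank: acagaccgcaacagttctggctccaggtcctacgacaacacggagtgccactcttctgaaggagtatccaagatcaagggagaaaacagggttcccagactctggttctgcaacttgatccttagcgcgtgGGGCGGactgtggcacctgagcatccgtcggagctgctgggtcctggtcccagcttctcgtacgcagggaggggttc
Nfasc intronic Qki-5 peak: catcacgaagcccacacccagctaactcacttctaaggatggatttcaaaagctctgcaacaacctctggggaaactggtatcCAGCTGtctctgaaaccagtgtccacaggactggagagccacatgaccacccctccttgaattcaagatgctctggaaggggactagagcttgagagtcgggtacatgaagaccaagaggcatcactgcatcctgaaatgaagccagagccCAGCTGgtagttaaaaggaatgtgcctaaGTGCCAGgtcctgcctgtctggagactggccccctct

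Pol II was called at the promoters of 2 of the 9 genes in Qk-/- cells, where 46.5% of protein-coding genes had a Pol II promoter peak, and at 2 of the 9 in WT cells, where 54.1% had one. Both genes, Cnp and Nfasc, were the same in the 2 genotypes. Of protein-coding genes with a WT Pol II promoter peak, 85.7% also had one in Qk-/- cells. Qki-5 was called at 0 of the 9 promoters in Qk-/- cells (0.870% of protein-coding genes) and at 1, that of Cnp, in WT cells (19.4%). Srebp2 was called at 0 of the 9 in Qk-/- cells (0.118%) and at 0 of the 9 in WT cells (0.292%), counts that rest on the short Srebp2 lists. Among the 54 combinations of a gene and a list, 5 therefore had a promoter peak.

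Outside a gene's own promoters, the spans of 0 of the 9 genes carried a Pol II peak in Qk-/- cells (5.09% of protein-coding genes). In WT cells those of 3 of the 9, Mbp, Cnp and Nfasc, carried one (21%). A Qki-5 peak lay on the span outside the gene's own promoters of 0 of the 9 in Qk-/- cells (0.269%), and of 2, Mbp and Nfasc, in WT cells (5.90%). Nfasc (177108 bp) and Mbp (110492 bp) have the longest spans of the 9. The shares are over genes of any length, and span length was not taken into account. In all, 2 peaks of the Qk-/- lists and 14 peaks of the WT lists fell on the promoter or span of a member, and all 16 were at Cnp, Nfasc or Mbp. The other 6 genes, Mag, Mog, Mobp, Myrf, Cldn11 and Mal, had no peak of any list on promoter or span.

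**Figure D1:**
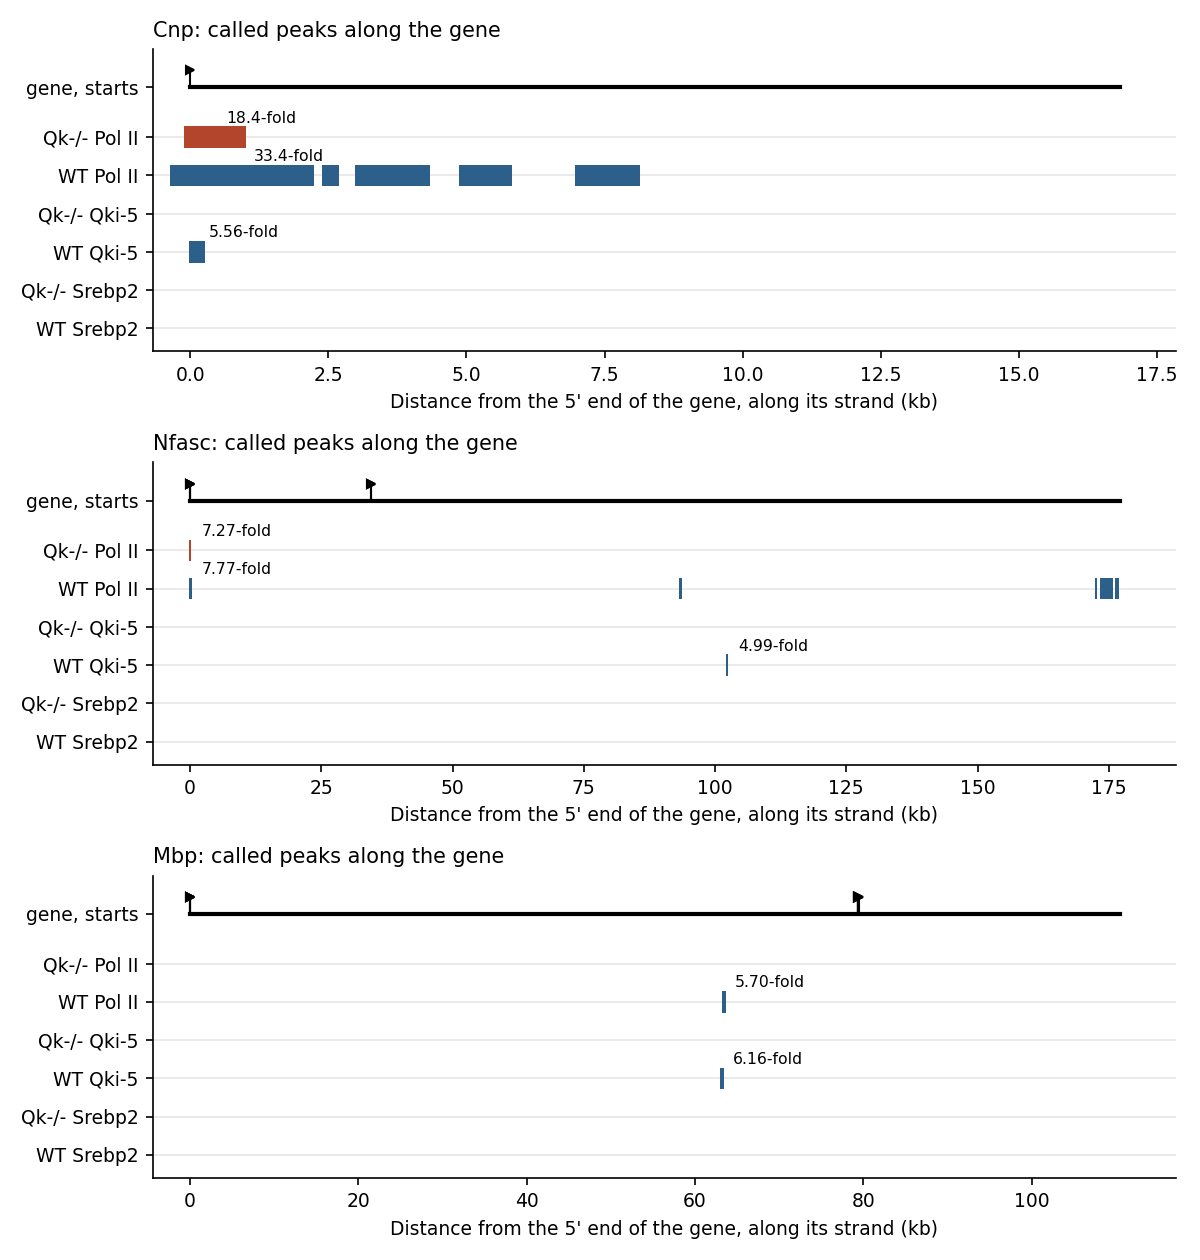
Called peaks of the 6 lists along Cnp, Nfasc and Mbp, drawn by distance from the 5′ end of the gene in kb (x axis), with the gene as a black line and its TSSs as arrows, Qk-/- lists in red above WT lists in blue, and the fold enrichment of the strongest peak in each row. Peaks narrower than 0.25% of the gene are drawn at that width; Cnp holds 1 Pol II peak in Qk-/- cells and 5 in WT cells, Nfasc also 1 and 5, and Mbp none and 1.

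Cnp (ENSMUSG00000006782.16, chr11:100574904-100591729, + strand, 1 TSS) had the strongest promoter peaks of the 9 genes. The Qk-/- Pol II peak (chr11:100574799-100575918) reached 18.4-fold with a −log10 q of 53.3 and was the 1270th of 12835 peaks, and the WT Pol II peak (chr11:100574545-100577149) reached 33.4-fold with a −log10 q of 125 and was the 939th of 32280. Among genes with a promoter peak, Cnp stood above 85.1% of 12770 in the Qk-/- list and above 90.7% of 15750 in the WT list, so that its place in the upper part of each list was similar while the fold values themselves belong to different libraries. The summits lay 129 bp downstream of the TSS in Qk-/- cells and 123 bp downstream in WT cells, 6 bp apart and in the 5′ untranslated part of the transcript.

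The extent of the Cnp peaks differed more than their summits. The promoter peak was 1120 bp wide in Qk-/- cells and 2605 bp wide in WT cells, where strongest promoter peaks had median widths of 722 bp (Qk-/-) and 1336 bp (WT). In WT cells, 4 further peaks of 3.61-fold to 5.11-fold followed downstream, 3 with summits in introns and 1 in a coding exon, and the most distal of them also overlapped the span of Dnajc7, a heat shock cochaperone gene. Pol II peaks covered 6.03% of the Cnp span in Qk-/- cells and 35.9% in WT cells, more than in 79.4% of bound protein-coding genes of the Qk-/- list and in 89.0% of those of the WT list. The medians over these genes were 1.87% in Qk-/- cells and 4.11% in WT cells. The WT list as a whole held more and wider promoter peaks, and the part of depth in the difference in width was not tested.

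Cnp was also the only member with Qki-5 at its promoter, and only in WT cells. In Qk-/- cells the nearest Qki-5 summit was 1067 kb from the Cnp TSS. The WT peak (chr11:100574883-100575181) was 299 bp wide and 5.56-fold enriched, with a −log10 q of 5.72, and ranked 3332nd of 7539, above 58.2% of the 5680 genes with a Qki-5 promoter peak. Its summit, 142 bp downstream of the TSS, lay 13 bp from the Qk-/- Pol II summit and 19 bp from the WT Pol II summit, and the whole Qki-5 peak was inside both Pol II peaks. Such overlap is common in this list: 92.0% of the 4594 WT Qki-5 peaks in promoters overlapped a WT Pol II peak, and 34.6% of protein-coding genes with a WT Pol II promoter peak had a WT Qki-5 promoter peak. Of all WT Qki-5 promoter peaks, 4.53% overlapped a Qk-/- Qki-5 peak.

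**Figure D2:**
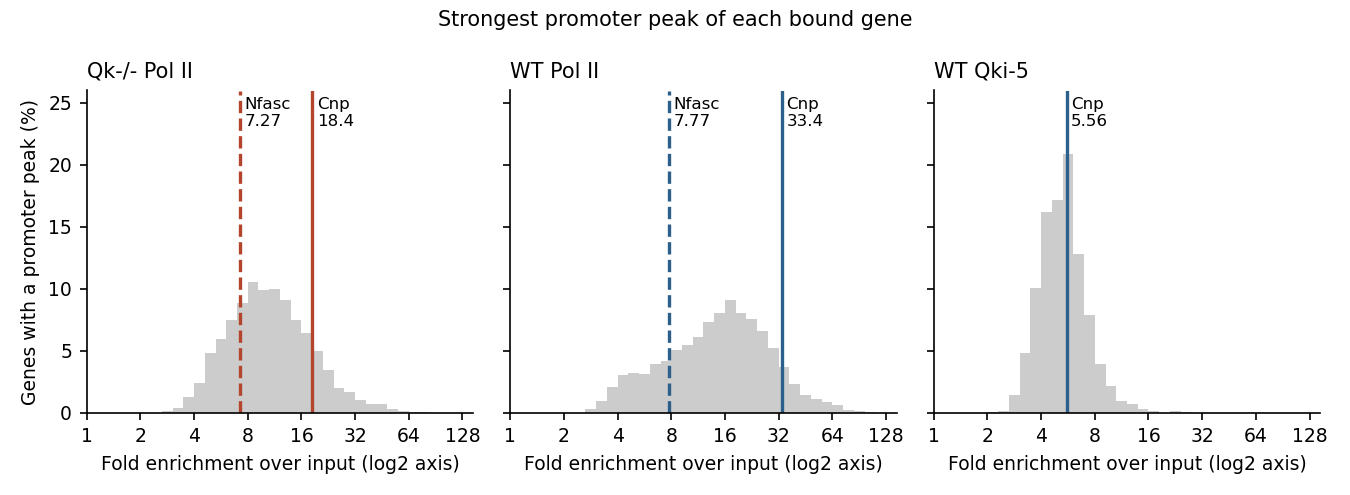
Fold enrichment over input (x axis, log2) of the strongest promoter peak of every gene with a promoter peak, as the percentage of these genes per bin (y axis), in the Qk-/- Pol II, WT Pol II and WT Qki-5 lists, with Cnp (solid line) and Nfasc (dashed line). Cnp at 18.4-fold and 33.4-fold lies in the upper tail of the Qk-/- and WT Pol II lists, Nfasc at 7.27-fold and 7.77-fold in their lower part, and Cnp at 5.56-fold near the middle of the WT Qki-5 list.

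Over the 6 lists, the protein-coding genes whose within-list percentiles were closest to those of Cnp were Snrpb (Euclidean distance 2.58 percentile points), a gene of the spliceosomal core, Itm2b (3.91), encoding an integral membrane protein, and Memo1 (4.23), a gene linked to cell motility. All 3 had strong Pol II peaks in both genotypes, a Qki-5 peak in WT cells only and no Srebp2 peak. This shared pattern follows from how they were chosen and is no separate result. The nearest Srebp2 summit to Cnp was 46.9 kb upstream at the same position in both genotypes, 42 bp from a TSS of Acly, the ATP citrate lyase gene, with 7.97-fold enrichment in Qk-/- cells and 12.6-fold in WT cells. In the 250-base upstream flank of Cnp, CTGGCAC stands at bases 205 to 211 and the complement of CTGGTAC at bases 14 to 20, counted from the 5′ end. Windows of this length upstream of protein-coding genes held CTGGCAC in 4.14% of cases and CTGGTAC in 1.65%. In the 200 bp window around the Qki-5 summit of Cnp, 2 matches to GGGCGG were found and none to the other 11 motifs, and 36.5% of WT Qki-5 windows held GGGCGG. A match is a string of letters and does not show that a factor was bound.

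Nfasc (ENSMUSG00000026442.14, chr1:132564690-132741797, − strand) has 5 TSSs in 2 start regions. Pol II was called at the upstream region in both genotypes and at the downstream region (TSSs 132707326 and 132707406) in neither. The Qk-/- peak (chr1:132741611-132741995) was 7.27-fold with a −log10 q of 11.2 and the WT peak (chr1:132741519-132742056) 7.77-fold with a −log10 q of 24.9. These lay above 24.8% of 12770 genes in the Qk-/- list and above 19.8% of 15750 in the WT list, in the lower part of both. The peaks were 385 bp wide in Qk-/- cells and 538 bp wide in WT cells, and their summits, 29 bp (Qk-/-) and 3 bp (WT) downstream of the nearest TSS, were 26 bp apart. The flank printed above held 1 match to GGGCGG, at bases 132 to 137, and 39.7% of windows of its length upstream of protein-coding genes held the motif.

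Along the long Nfasc span, no further Pol II peak was called in Qk-/- cells, against 4 in WT cells. The WT folds were 5.87, 6.20 and 3.60 for 3 peaks with summits in the 3′ untranslated region and 5.11 for 1 in an intron. Together with the promoter peak, Pol II peaks covered 0.106% of the span in Qk-/- cells and 2.39% in WT cells, more than in 5.32% of bound protein-coding genes of the Qk-/- list and in 36.1% of those of the WT list.

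In Qk-/- cells the nearest Qki-5 summit was 6097 kb from an Nfasc TSS. The WT Qki-5 peak of Nfasc (chr1:132639310-132639802) was intronic, 4.99-fold enriched with a −log10 q of 4.51, and the 4585th of 7539. Its summit was 67.7 kb downstream of the nearest GENCODE TSS, and 3229 bp from a further start that RefSeq lists at position 132642858, whose promoter window held no peak of any list. It overlapped no Pol II peak of either genotype. Of the 1663 WT Qki-5 peaks on gene spans and outside the promoters of all genes, 11.9% overlapped a Qk-/- Pol II peak and 61.6% a WT Pol II peak. The stretch of 300 bases printed above held 2 matches to CAGCTG, found in 24.1% of windows of this length around WT Qki-5 summits, and 1 to CTGGCAC, found in 8.04%. No ACTAAC or ACTAAT was found in it, and 4.41% and 4.01% of these windows held them.

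Mbp (ENSMUSG00000041607.17, chr18:82475146-82585637, + strand) has 10 TSSs in 2 start regions, the upstream start of the longer Golli-Mbp unit and the downstream start of the classic myelin transcripts. No list had a peak at either. In Qk-/- cells the nearest Pol II summit was 138 kb away, at Gm10524, and the nearest Qki-5 summit 4761 kb away. In WT cells a Pol II peak of 5.70-fold (chr18:82538318-82538844) and a Qki-5 peak of 6.16-fold (chr18:82538173-82538553) lay together in an intron, 15.8 kb and 16.2 kb upstream of the downstream start region. They overlapped by 236 bp with summits 350 bp apart, and the Qki-5 peak was the 2227th of 7539. Neither was called in Qk-/- cells. Of WT Qki-5 peaks on gene spans and outside the promoters of all genes, 2.16% overlapped a Qk-/- Qki-5 peak. A peak of this class was thus rarely called in Qk-/- cells whatever the gene. The sequence of this site is not shown and was not searched for motifs.

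For the genes with no peak, the nearest Pol II summits lay closer to the starts of other genes. In Qk-/- and WT cells they lay 42.7 kb and 29.6 kb from Mag, 20.5 kb and 20.4 kb from Mog, 16.8 kb and 16.5 kb from Mobp, and 36.3 kb and 34.2 kb from Myrf. They lay 54.9 kb and 55.9 kb from Cldn11 and 68.8 kb in both genotypes from Mal. The TSS closest to the summit was that of Zfp57 for Mog, Snora62 for Mobp, Skil for Cldn11 and Mrps5 for Mal in both genotypes. The summits near Mobp lay 2482 bp (Qk-/-) and 2820 bp (WT) from the Snora62 TSS. For Mag the closest TSS was that of Gm4673 in Qk-/- cells and of Hamp in WT cells. For Myrf it was that of Fen1 in Qk-/- cells and of Tmem258 in WT cells. The median distance of protein-coding genes without a promoter peak was 98.9 kb in the Qk-/- list and 89.4 kb in the WT list. Of the 7 members without a Pol II promoter peak, 6 were nearer than this median in Qk-/- cells, Mbp being the exception, and 7 in WT cells.

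Qki-5 was nearest to Mbp among these 7 genes in WT cells. The WT summits lay 42.1 kb from Mag, 64.6 kb from Mog, 418 kb from Mobp, 45.1 kb from Myrf, 55.4 kb from Cldn11 and 436 kb from Mal, against a median of 110 kb for protein-coding genes without a Qki-5 promoter peak. In Qk-/- cells, with 427 Qki-5 peaks in all, the distances ran from 148 kb for Myrf to 10535 kb for Mal. Srebp2 summits other than that near Cnp were over a megabase away from every member, and in Qk-/- cells Mbp and Mog had no Srebp2 peak on their chromosomes.

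**Figure D3:**
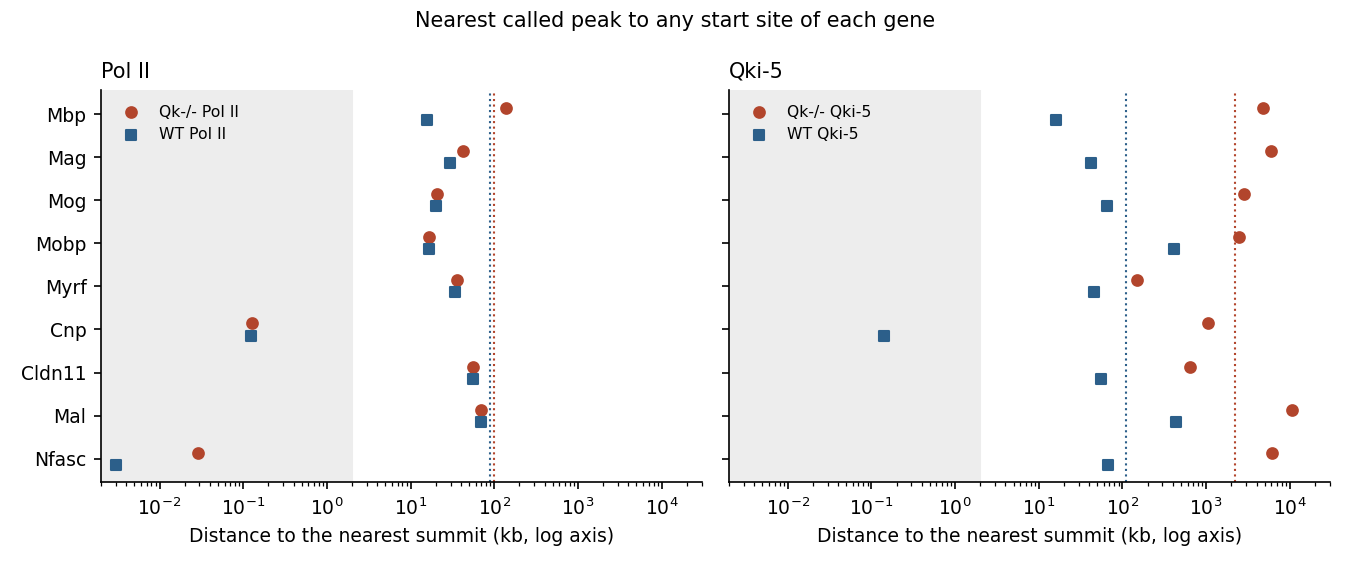
Distance in kb (x axis, log scale) from the nearest TSS of each of the 9 genes to the nearest Pol II summit (left) and Qki-5 summit (right), with Qk-/- lists as red circles and WT lists as blue squares; the grey band is the promoter window of 2 kb and dotted lines are the medians of protein-coding genes without a promoter peak. Cnp and Nfasc lie in the band for Pol II in both genotypes and Cnp for WT Qki-5, while the other genes lie 15.8 kb or farther from a Pol II summit.

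The promoters without Pol II included both CpG-rich and CpG-poor ones. CpG is a dinucleotide depleted from most of the genome and kept in many promoters. The CpG ratio (CpG count over that expected from the C and G content) in 1000 bp around the TSS was 0.59 at Cnp and 0.62 at the upstream start of Nfasc. It was 0.73 at Myrf, 0.60 at the upstream and 0.46 at the downstream start of Mbp, 0.59 at Cldn11 and 0.57 at Mal, all without a peak. It was 0.16 at Mag, 0.15 at Mog, 0.32 and 0.13 at the 2 start regions of Mobp, and 0.30 at the downstream start of Nfasc. The median was 0.74 over 11879 protein-coding genes with a WT Pol II promoter peak and 0.22 over 10059 without one. Of the 10 start regions without Pol II in WT cells, 3 had a ratio at or above that of Cnp. Among protein-coding genes without a WT Pol II promoter peak, 85.95% had a ratio below that of Cnp. Among protein-coding genes with such a peak, 22.62% did. A ratio as high as that of Cnp thus occurred with and without a Pol II peak, but in a larger share of the genes with one. Whether CpG content bears on the Pol II calls at the members was not tested.

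**Figure D4:**
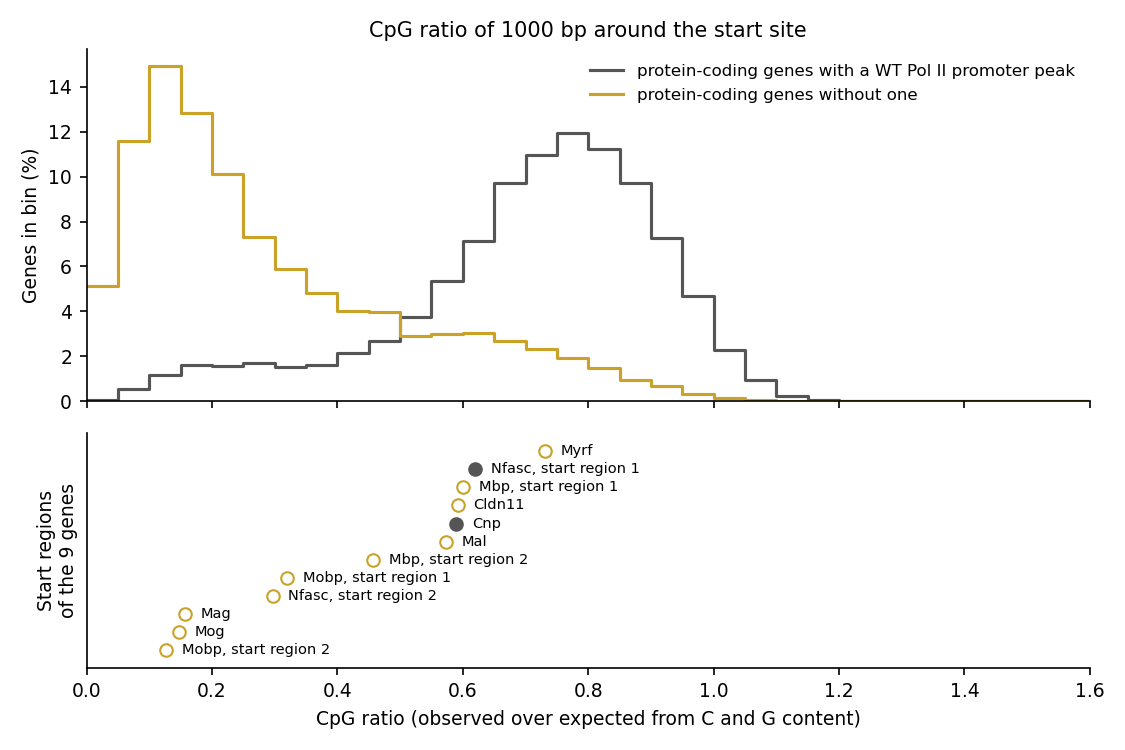
CpG ratio (x axis) in 1000 bp around the TSS: above, the percentage of protein-coding genes per bin with (grey) and without (yellow) a WT Pol II promoter peak; below, the 12 start regions of the 9 genes, filled where a WT Pol II promoter peak was called. Cnp (0.59) and Nfasc start region 1 (0.62) are filled and lie among open symbols of Mal (0.57), Cldn11 (0.59), Mbp start region 1 (0.60) and Myrf (0.73).

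The 250 bases upstream of the first exon are printed for 5 genes without Pol II, to set beside those of Cnp and Nfasc, with capitals for the same 12 motifs. They are from mm10 and 5′ to 3′ on the strand of the gene: Mag (chr7:30914923-30915172, −), Mog (chr17:37023399-37023648, −), Mobp (chr9:120149457-120149706, +), Cldn11 (chr3:31149670-31149919, +) and Mal (chr2:127656696-127656945, −). No sequence is shown for Mbp and Myrf.
Mag: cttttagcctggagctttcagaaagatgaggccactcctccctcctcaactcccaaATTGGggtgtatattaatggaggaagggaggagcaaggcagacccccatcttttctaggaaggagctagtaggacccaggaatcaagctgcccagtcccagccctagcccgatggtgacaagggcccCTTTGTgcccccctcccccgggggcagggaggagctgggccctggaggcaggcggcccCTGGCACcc
Mog: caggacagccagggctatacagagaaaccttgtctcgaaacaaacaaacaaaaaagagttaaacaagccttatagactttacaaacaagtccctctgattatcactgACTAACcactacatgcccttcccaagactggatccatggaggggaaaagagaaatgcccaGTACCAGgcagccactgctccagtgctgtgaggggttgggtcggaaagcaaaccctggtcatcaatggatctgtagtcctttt
Mobp: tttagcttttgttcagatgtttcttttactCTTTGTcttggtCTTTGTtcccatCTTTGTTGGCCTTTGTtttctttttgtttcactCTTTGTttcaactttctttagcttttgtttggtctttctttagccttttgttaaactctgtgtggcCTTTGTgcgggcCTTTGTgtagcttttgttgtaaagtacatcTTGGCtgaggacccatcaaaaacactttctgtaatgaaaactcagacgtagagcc
Cldn11: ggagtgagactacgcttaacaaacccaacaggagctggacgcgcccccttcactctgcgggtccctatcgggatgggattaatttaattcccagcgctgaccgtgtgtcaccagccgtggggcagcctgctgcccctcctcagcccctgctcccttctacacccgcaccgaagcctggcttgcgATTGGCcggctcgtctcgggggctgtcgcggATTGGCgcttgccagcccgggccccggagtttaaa
Mal: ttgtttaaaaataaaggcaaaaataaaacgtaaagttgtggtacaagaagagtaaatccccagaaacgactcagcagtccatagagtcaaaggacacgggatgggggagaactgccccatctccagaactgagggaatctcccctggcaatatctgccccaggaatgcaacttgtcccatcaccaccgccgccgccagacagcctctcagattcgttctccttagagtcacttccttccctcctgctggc

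The flank of Mag held CTGGCAC at bases 242 to 248, and that of Mog the complement of CTGGTAC at bases 168 to 174 and ACTAAC at bases 108 to 113. With Cnp, 3 of the 7 flanks searched held a Myrf heptamer, a count chosen after the matches had been seen, and 5.72% of flanks of this length upstream of protein-coding genes held CTGGCAC or CTGGTAC. That share was 5.61% for genes with a WT Pol II promoter peak and 5.85% for genes without one. The flank of Mobp held 7 matches to ACAAAG, all on the opposite strand in repeats of a ctttgt pattern, where 15.4% of flanks held any. Cldn11 held 2 overlapping pairs of TTGGC and CCAAT in the opposite direction, motifs held by 43.6% and 36.0% of flanks. The Cldn11 flank contained 19 CpG, against 10 in the 250 bases upstream of Nfasc, 7 in Mal, 7 in Cnp, 3 in Mag, 2 in Mog and 2 in Mobp. In Mal none of the 12 motifs was found.

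Other genes of the lineage were read in the same way from lists drawn up by hand. Of 32 further genes of myelin and mature oligodendrocytes, 10 had a Pol II promoter peak in Qk-/- cells (46.5% of protein-coding genes) and 12 in WT cells (54.1%). The strongest in Qk-/- cells was Cd9, a tetraspanin gene, with 20.9-fold in Qk-/- cells and 22.2-fold in WT cells. The strongest in WT cells was Gstp1, the glutathione transferase gene, with 17.5-fold in Qk-/- cells and 32.3-fold in WT cells. The 20 genes without a peak in either genotype included Opalin, a transmembrane protein gene of oligodendrocytes, and Aspa, the aspartoacylase gene. A WT Qki-5 promoter peak was found at 1 of the 32 (19.4% of protein-coding genes), Plekhb1, at 6.06-fold.

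Of 22 regulators of the lineage, 15 had a Pol II promoter peak in Qk-/- cells (46.5% of protein-coding genes) and 16 in WT cells (54.1%). The strongest in Qk-/- cells was Id2, an inhibitor of differentiation, with 30.1-fold in Qk-/- cells and 34.7-fold in WT cells. The strongest in WT cells was Yy1, a zinc finger factor, with 12.3-fold in Qk-/- cells and 35.7-fold in WT cells. Olig2, the basic helix-loop-helix factor of the lineage, had 4.29-fold in Qk-/- cells and 25.1-fold in WT cells. Olig2 was also the only regulator with a Qki-5 promoter peak in Qk-/- cells (0.870% of protein-coding genes), of 10.3-fold. Its WT Qki-5 promoter peak was 3.53-fold. These folds belong to different libraries, whose strongest Qki-5 promoter peaks had medians of 6.98-fold (Qk-/-) and 5.28-fold (WT). Why a Qki-5 peak was called there in Qk-/- cells was not tested. In WT cells 9 of the 22 had a Qki-5 promoter peak (19.4% of protein-coding genes), of 3.53-fold to 6.66-fold. The 6 regulators without Pol II in either genotype included Nkx6-2, Zfp488 and Sox10, a factor that acts with Myrf at myelin genes. No gene of either list had a Srebp2 promoter peak in either genotype.

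The label of these cells was compared with the markers of other cell types. Among all protein-coding genes, 46.5% had a Pol II promoter peak in Qk-/- cells and 54.1% in WT cells. Pol II promoter peaks were found at 9 of 10 neural stem cell genes in Qk-/- cells and 10 of 10 in WT cells, with Vim at 45.4-fold in Qk-/- cells and 92.9-fold in WT cells. They were found at 8 of 10 astrocyte genes in each genotype, the strongest being Sox9 at 56.1-fold in Qk-/- cells and 102-fold in WT cells. The astrocyte genes Aldh1l1 and S100b had none in either genotype. Pol II promoter peaks were called at 4 of 10 precursor genes in Qk-/- cells against 7 of 10 in WT cells. Neuron genes had them in 1 of 10 (Qk-/-) and 4 of 10 (WT), and microglia genes in 1 of 10 in each genotype. Among genes of mature oligodendrocytes, Mbp, Mag, Mog, Mobp, Myrf, Opalin and Aspa had no Pol II promoter peak in either genotype, whereas Cnp and Nfasc did, as did 10 of the 32 further genes in Qk-/- cells and 12 in WT cells, with Gstp1 and Cd9 in both. The peak names in the Pol II and Qki-5 lists carry the prefix mNSC and those in the Srebp2 lists the prefix OL, although all samples have the same cell type label. How far the state of differentiation or depth bears on the absence of peaks was not tested, and in chromatin of mixed cells a promoter active in a small share of cells cannot be told apart from one weakly bound in all.

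**Figure D5:**
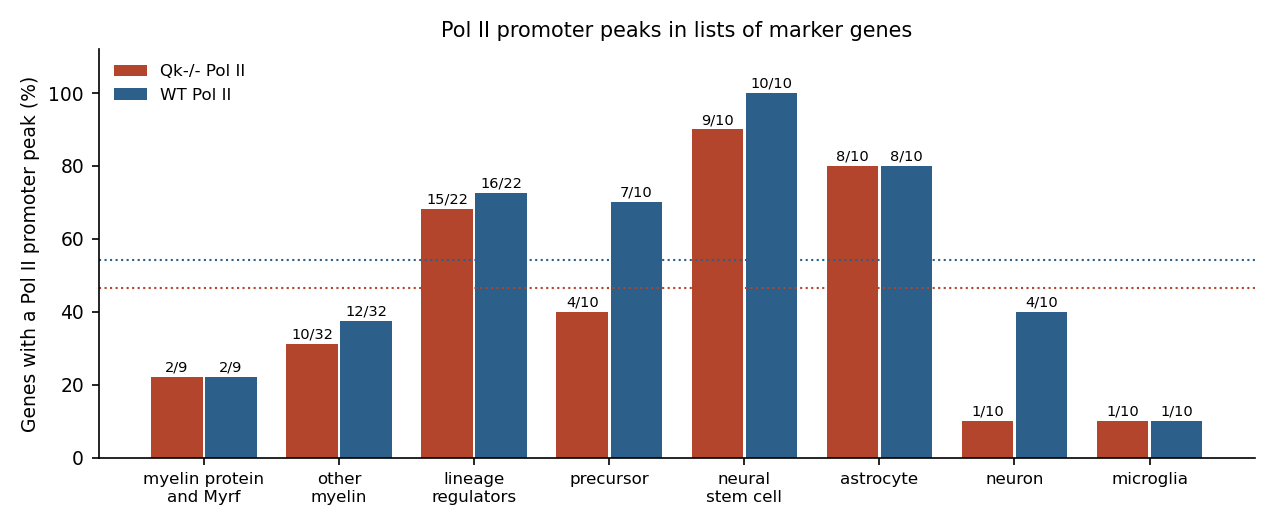
Percentage of genes with a Pol II promoter peak (y axis) in the 9 myelin protein and Myrf genes and in lists of marker genes (x axis), Qk-/- in red left of WT in blue, with the count above each bar and dotted lines for all protein-coding genes (46.5% in Qk-/- cells, 54.1% in WT cells). The 9 genes (2 of 9 in both genotypes) lie below both lines, and neural stem cell genes (9 of 10 and 10 of 10) above them.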

How the data were processed

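The data were 6 peak lists from ChIP-seq of Pol II, Qki-5 and Srebp2 in Qk-/- and WT cells, with 1 library each; 4 input libraries served as background. The authors mapped reads to mm10 (Bowtie2 by the methods, Bowtie 1.2.2 by the submitters' processing notes), dropped duplicates and ran MACS2 2.1.2 per library with the matching input, keeping peaks under a q-value of 0.05. The fold enrichment deposited by the authors is a ratio, that of summit pileup over MACS2's local background. The −log10 p-value and −log10 q-value, as deposited by the authors, are those of MACS2 for the peak. The score deposited by the authors equalled 10 times the −log10 q-value, rounded down, in every peak. Depth and its precision are unknown, as no list gives read totals.

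Scripts ran in Python 3.11.15 with numpy 2.4.6 and pandas 2.3.3; sequences were read with pysam 0.24.0 from the GRCm38.p6 assembly, which is mm10, and figures were drawn with matplotlib 3.10.9. A peak was assigned to every gene with a TSS of the GENCODE M21 basic set within 2000 bp, at an overlap of at least 1 bp. A peak on a gene span was counted as outside promoters where it met no promoter of that gene, also if it met one of another gene. Only the overlap shares of WT Qki-5 peaks on gene spans left out peaks in the promoter of any gene. TSSs more than 1000 bp apart were taken as separate start regions. Motifs were counted in 200 bp windows around summits of Cnp and Nfasc and in the printed stretches. No test was made between genotypes, and counts of members were set beside shares of protein-coding genes. RefSeq promoter entries of the same assembly were used for further starts and to choose which flanks are printed.

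Named were the 9 members, genes overlapped by their peaks, Qk, up to 6 examples of each list of related genes (strongest, and without a peak) and the 3 genes closest to a member bound in 3 or more lists. Genes that mark the nearest peaks, the example genes of cell types, Olig2 and Plekhb1 were named after their values were seen. The members, lists and motifs were chosen with earlier results of these data known. On simulated data, 200 of 200 planted promoter peaks were found, 200 of 200 peaks lying 1 bp outside the window were left unassigned, and 200 of 200 planted motifs were found. Alternatives were other thresholds, windows, overlap rules, transcript sets, rank measures and motif windows. Values of 1 gene of these lists are not reported here.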

Additional observations from a re-analysis of the deposited data

How the results depend on the processing

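No paired analysis was possible because each antibody and genotype had 1 library and no test was made. All 48 values for members with a promoter peak, and all 8 for Pol II promoters called in both genotypes, were equal to those reported under 8 alternatives: a q-value under 0.01, a fold of at least 5, windows of 1000 and 2500 bp, summits inside the promoter, all GENCODE transcripts, protein-coding transcripts only, and peaks nearest to the TSS of the member. Of 24 counts of members with a peak on the span, 1 moved: with a fold of at least 5, WT Qki-5 was left at 1 gene, Mbp, since the Nfasc peak has 4.99-fold. For promoters and spans alike, a count of 0 was bound to stay 0 under alternatives that only remove peaks or starts or narrow the window. Those equal values are therefore no check of the result. The promoter counts above 0 could not fall under stricter thresholds, the 1000 bp window or the summit and nearest-TSS rules. The promoter peaks of Cnp and Nfasc had at least 5.56-fold, a −log10 q of at least 5.72 and summits within 142 bp of their own TSS. Where a member had no promoter peak in a list, its nearest summit was 15.8 kb or farther. The 2500 bp window could therefore add no member.

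Ranked by −log10 q, Cnp lay above 86.5% of bound genes in the Qk-/- Pol II list, 86.9% in the WT Pol II list and 48.0% in the WT Qki-5 list, and Nfasc above 22.1% (Qk-/-) and 26.8% (WT) in the Pol II lists. Among protein-coding genes only, Cnp lay above 86.5%, 91.3% and 59.7% in the same 3 lists and Nfasc above 16.0% in the WT Pol II list. With a fold of at least 5, the median distance of members to a Qk-/- Qki-5 summit was 4761 kb, against 2820 kb.

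Of the 12 motifs, 1 was found in each 200 bp window searched, all of them at Cnp and Nfasc. In 400 bp windows it was 4 at the Cnp Pol II summits in Qk-/- and in WT cells, 3 at the Cnp Qki-5 summit and 2 at the Nfasc Qki-5 summit. In 100 bp windows it was 0 at Nfasc for Qk-/- Pol II, WT Pol II and WT Qki-5. The single library per group and the unknown depth limit every comparison between genotypes: a peak absent from a list is one not called at this depth.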
